A study of Mus musculus with 6 samples.

Results

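TIMP inhibitors and ADAM proteases are described here through 9 genes, Timp1, Timp2, Timp3, Adam8, Adam10, Adam15, Adam17, Adam19 and Adamtsl2, of the 35896 genes to which the deposited transcripts could be assigned. They were taken by name, and their choice drew on their values in WT against Cul5 cKO samples, so the differences in level of these 9 genes between genotypes are given as a description, with no test. The cells were CD4+ T cells of C57BL/6 mice polarized towards Th9, a helper subset that secretes IL-9. WT samples came from Cul5fl/fl littermates without Cre, and Cul5 cKO samples from Cul5fl/flCD4-Cre mice, in which Cre driven by the CD4 promoter removes exons 9 to 11 of Cul5, the scaffold of a ubiquitin ligase, in all T cells and before the culture begins. All mice were 8 to 10 weeks old. In both genotypes naive CD4+ cells were isolated with magnetic beads from spleen and lymph nodes and cultured for 48 h with plate-bound anti-CD3 (2 µg/ml), soluble anti-CD28 (1 µg/ml), IL-4 (20 ng/ml), TGF-β (2.5 ng/ml) and anti-IFN-γ (10 µg/ml). RNA of 3 samples per genotype was sequenced in 1 experiment. The labels do not say that the samples of a group came from separate mice, so p-values measure the spread between these samples, which may be technical.

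ADAM proteases are membrane-bound metalloproteinases that cut the outer part of other membrane proteins off the cell, a step called shedding. ADAM10 and ADAM17 are the main sheddases of lymphocytes, where they release or trim proteins such as Notch receptors, TNF and L-selectin. TIMPs are small secreted proteins that block the active site of matrix metalloproteinases (MMPs), and some of them block ADAMs as well.

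WT replicate 3 was the shallow library, with 3944803 estimated counts, and the other 5 samples held 23111689 to 23454552. A level of 3 counts, taken as the floor, corresponded to 0.759 CPM (counts scaled to a common library size) in WT replicate 3 and to between 0.128 and 0.133 CPM elsewhere, which covers counting error only. Cul5 itself, a check of the labels, had a mean of 66.2 ± 2.67 CPM in WT samples and fell to 12.6 ± 1.82 CPM in Cul5 cKO samples (SD, n = 3), or -2.39 on the log2 scale, with an adjusted p of 0.000992 in edgeR's test over all genes. The summed level of 6 T cell markers (Cd3e, Cd3g, Cd4, Cd2, Trac and Lck) was 1682 to 1732 CPM in WT samples. In Cul5 cKO samples it was 1601 to 1670 CPM, so the groups did not overlap, as in 27.5% of all genes tested. Cd3e, Cd3g and Lck were lower in every Cul5 cKO sample than in every WT sample, while Cd4, Cd2 and Trac overlapped. The sum of 7 myeloid markers was 17 CPM in Cul5 cKO replicate 2 against 2.95 to 8.39 CPM in the other samples, and that of 5 B cell markers was 48.0 CPM in Cul5 cKO replicate 3 against 6.47 to 19.2 CPM. The samples numbered 1 shared part of their deviation from the group means (correlation 0.37 across genes), so values of replicates 2 and 3 alone are given as well. In bulk RNA, fewer cells that express a gene cannot be told apart from less RNA per cell.

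All 9 genes passed the filter on low counts, but their levels were far apart. On the scale that accounts for transcript length (TPM, kallisto's length-scaled abundance), the WT means ran from 71.6 ± 6.83 for Adam10 through 60.2 ± 3.83 for Adam19, 30.2 ± 4.50 for Adam15, 22.3 ± 2.60 for Adam17 and 21.3 ± 3.14 for Timp2 to 1.66 ± 1.77 for Adam8, 1.54 ± 0.657 for Adamtsl2, 1.33 ± 0.637 for Timp1 and 0.573 ± 0.435 for Timp3 (SD, n = 3). Neighbours in this order overlapped between Adam17 and Timp2, and along the whole run of Adam8, Adamtsl2, Timp1 and Timp3. Adam10 was above 82.4% of the 12925 genes tested and Timp3 above 7.61%. In Cul5 cKO cells the first 5 places were held by the same genes in the same order, Timp1 came at rank 6 with 10.1 ± 2.56 TPM, and Adamtsl2 came last with 0.383 ± 0.215 TPM (SD, n = 3).

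**Figure D1:**
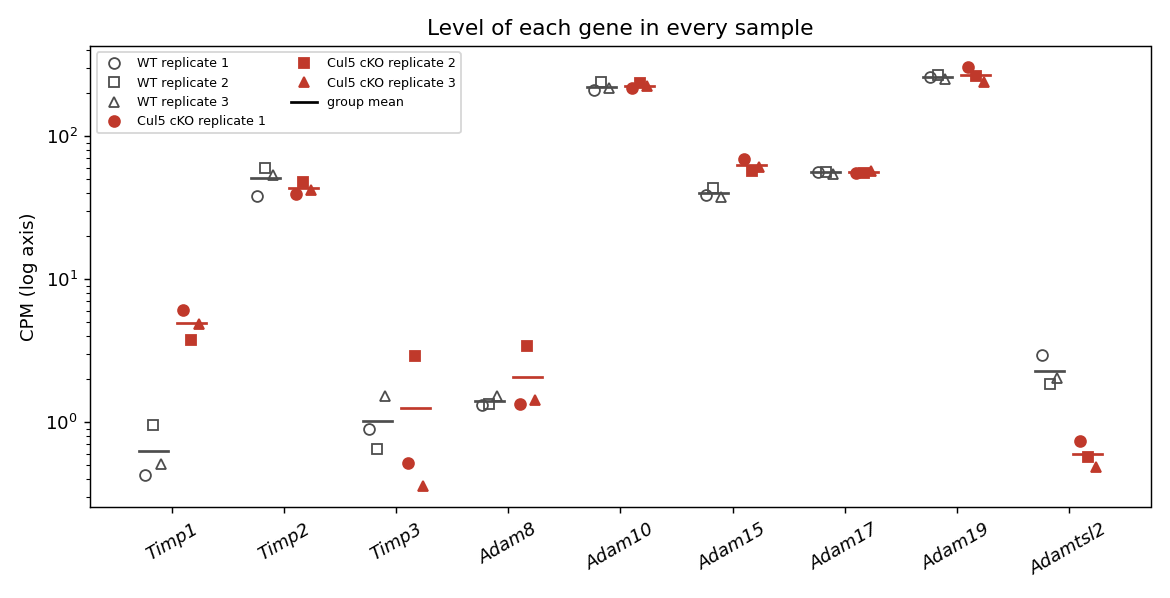
CPM on a log axis for each of the 9 genes, with 1 point per sample (open grey, WT; filled red, Cul5 cKO; the shape gives the replicate) and a line at each group mean. The groups are separate for Timp1, Adam15 and Adamtsl2 and overlap for the other 6 genes, and Timp3 and Adam8 each have 1 high point, from Cul5 cKO replicate 2.

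Between genotypes, 2 genes were higher in all Cul5 cKO samples, Timp1 and Adam15, and Adamtsl2 was lower in all of them, while the groups of the other 6 genes overlapped in CPM. Among all 12925 genes tested, 27.5% had groups that did not overlap. Since the set was chosen on this contrast, nothing is read from 3 of the 9 genes being separate, and no p is given for these differences. For the lists of connected genes described further on, edgeR's fit called 133 of all genes tested at an adjusted p under 0.05 (1.03%), 79 as higher in Cul5 cKO cells (0.611%) and 54 as lower (0.418%). With libraries scaled by their totals in place of TMM, the split was 72 higher and 77 lower.

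Timp1 encodes a secreted inhibitor of most MMPs and of ADAM10. It lies on chromosome X of GRCm38 (20870166 to 20874735, plus strand, ENSMUSG00000001131), inside Syn1, a neuronal synapsin gene on the opposite strand, without shared exon sequence. Timp1 was at 0.427, 0.952 and 0.506 CPM in WT replicates 1, 2 and 3, and at 6.08, 3.73 and 4.89 CPM in Cul5 cKO replicates 1, 2 and 3. The lowest Cul5 cKO sample was well above the highest WT sample. These levels rested on 10, 22 and 2 counts in WT and on 140, 85 and 110 counts in Cul5 cKO cells, so WT replicate 3 was under the floor. The group means were 0.628 ± 0.283 and 4.90 ± 1.18 CPM (SD, n = 3), which is 7.34-fold or a log2 fold change of 2.88 (SE 0.381) in edgeR's fit. Leaving out 1 sample in turn gave log2 fold changes from 2.56 to 3.44, and replicates 2 and 3 alone gave 2.36. Every count fell on protein-coding transcripts.

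Values of Timp1 are also given beside the marker sums that set single libraries apart. Which cells the Timp1 RNA came from was not tested. Cul5 cKO replicate 2, with the highest myeloid sum, held the lowest Timp1 level of its group, and without that sample the log2 fold change was 3.05. Cul5 cKO replicate 3, with the highest B cell sum, lay between the other two, and without it the value was 2.88. Stromal cells are known to secrete Timp1 in tissue. Their markers summed over 6 genes to 0.995 to 1.54 CPM in WT and 1.02 to 1.88 CPM in Cul5 cKO samples. None of the 6 genes was over the floor in every sample. Col3a1 and Pdgfra were at or under it in all 6 samples, Dcn in 4, Pdgfrb in 2, and Col1a1 and Col1a2 in 1 each. Timp1 itself was under the floor in WT replicate 3.

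Timp2, the inhibitor that also helps to activate pro-MMP2 at the cell surface, was the main TIMP of these cells. It is encoded on chromosome 11 (118301069 to 118355740, minus strand, ENSMUSG00000017466). Timp2 was at 38.4, 59.8 and 53.7 CPM in WT replicates 1, 2 and 3, and at 39.2, 48.0 and 42.2 CPM in Cul5 cKO replicates 1, 2 and 3. The 3 Cul5 cKO values lay within the WT range. The log2 fold change was -0.22 (SE 0.166) on counts, but the sign turned on other scales, with 0.14 for counts scaled from TPM and 0.10 in the gene-level table deposited by the authors. The effective length given by kallisto, averaged over the transcripts of Timp2 with TPM as weights, was 3185 bases in WT (2885 to 3500). In Cul5 cKO samples it was 2617 bases (2353 to 2993). These ranges overlapped, and the difference had an exact two-sided permutation p of 0.2, where 0.1 is the smallest that 3 against 3 allows. The second transcript, Timp2-202, took 3.6%, 0% and 1.5% of the counts of Timp2 in WT and 2.9%, 6.8% and 8.5% in Cul5 cKO replicates 1, 2 and 3. The length averaged over transcripts and the protein-coding share were compared in exact permutation tests for each of the 9 genes, in 18 tests. These tests cannot show whether transcript use differed, since no p under 0.1 was possible even before Benjamini-Hochberg adjustment. For Timp1 and Timp2 the protein-coding share was 100% in every sample, which left nothing to compare. No conclusion on transcript use is drawn from these 18 tests.

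Timp3, which binds the extracellular matrix and is the TIMP best known for blocking ADAM17, was close to the detection limit. It lies on chromosome 10 (86300372 to 86349506, plus strand, ENSMUSG00000020044) inside Syn3, on the opposite strand, and shares 1733 bases of exon sequence with it. The sources used here do not say whether the libraries kept strand, so reads of these bases cannot be assigned to either gene with certainty, although Syn3 was given at most 7 counts in a sample. Timp3 was at 0.897, 0.649 and 1.52 CPM in WT replicates 1, 2 and 3, and at 0.521, 2.89 and 0.356 CPM in Cul5 cKO replicates 1, 2 and 3. Cul5 cKO replicates 1 and 3 were below every WT sample and replicate 2 above every one. The log2 fold change was 0.47 (SE 0.822) with all samples and -1.05 without Cul5 cKO replicate 2. It was also below 0 with all samples kept on the TPM scale, at -0.19 for log2(TPM + 0.1) and -0.02 for log2(TPM + 1).

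In TPM, the TIMP genes together came to 19.2, 26.7 and 23.8 in WT and 31, 35.1 and 34.1 in Cul5 cKO replicates 1, 2 and 3. The groups did not overlap, with means of 23.2 ± 3.81 and 33.4 ± 2.13 TPM (SD, n = 3). On the count scale they did overlap, since the same sum was 39.7, 61.4 and 55.7 CPM in WT and 45.8, 54.6 and 47.4 CPM in Cul5 cKO replicates, and the separation in TPM includes Timp1, 1 of the genes chosen on this contrast. Timp1 made up 4.50%, 7.71% and 4.56% of the TPM sum in WT and 41.3%, 22.0% and 29.2% in Cul5 cKO samples. Timp2 was the larger part in every sample, at 90.9% to 94.1% in WT and 58.2% to 74.1% in Cul5 cKO cells. The 5 ADAM genes summed to 186 ± 12.5 TPM in WT and 200.2 ± 11.8 TPM in Cul5 cKO cells (SD, n = 3), with overlapping ranges. On the TPM scale, the TIMP share of the TIMP and ADAM sum was 11.1% ± 0.989 in WT and 14.3% ± 1.37 in Cul5 cKO cells (SD, n = 3), and the lowest Cul5 cKO value, 12.8%, was above the highest WT value, 12.0%. This share also includes Timp1, so its separation is no separate result. Timp2 alone overlapped, at 18.0 to 24.3 TPM in WT and 18.0 to 26.0 TPM in Cul5 cKO samples.

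**Figure D2:**
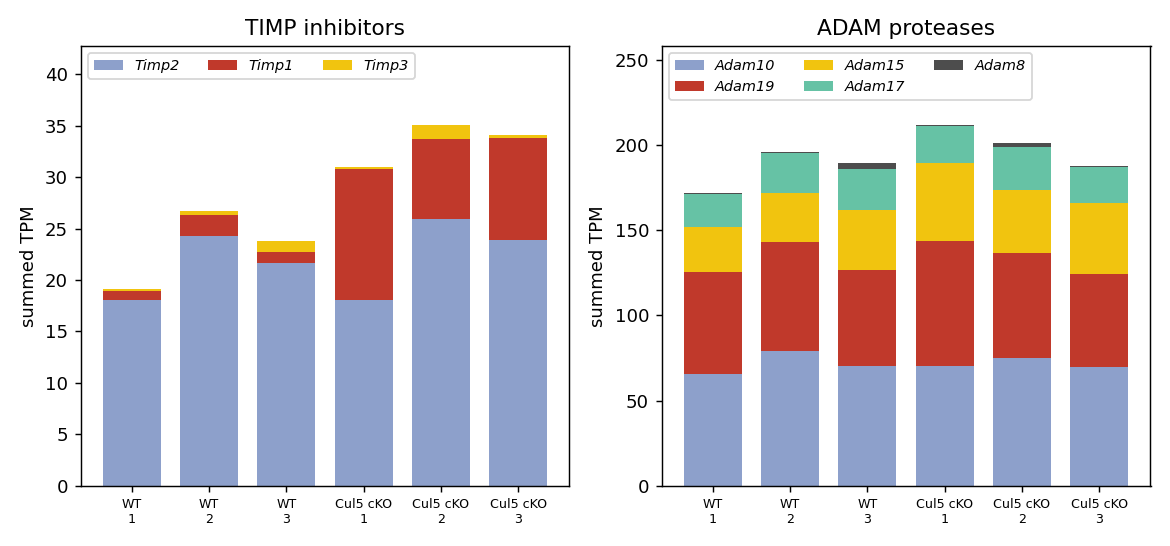
Summed TPM of the TIMP genes (left) and the ADAM genes (right) in each sample, as stacked bars from 0. The Timp1 segment is between 22.0% and 41.3% of the TIMP bar in Cul5 cKO samples and at most 7.71% in WT samples, while the ADAM bars of the genotypes overlap in height.

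Adam10 and Adam17, the general sheddases, differed between genotypes by less than the spread of the samples. Adam10 (chromosome 9, 70678997 to 70780229, plus strand, ENSMUSG00000054693) was at 208, 239 and 215 CPM in WT replicates 1, 2 and 3, and at 218, 235 and 223 CPM in Cul5 cKO replicates 1, 2 and 3. Adam17 (chromosome 12, 21323509 to 21373632, minus strand, ENSMUSG00000052593), the TNF-converting enzyme, was at 56.1, 56.3 and 54.7 CPM in WT replicates 1, 2 and 3, and at 55.3, 55.1 and 56.9 CPM in Cul5 cKO replicates in the same order. Both sets of values overlapped, with log2 fold changes of 0.03 (SE 0.0723) for Adam10 and -0.0004 (SE 0.0584) for Adam17. In CPM, the coefficient of variation of Adam17 between samples was 1.61% in WT and 1.75% in Cul5 cKO cells, the narrowest spread among the 9 genes. In TPM its spread was wider, at 22.3 ± 2.60 in WT and 22.7 ± 2.15 in Cul5 cKO samples (SD, n = 3). In the gene-level table of the authors the difference of Adam17 was 0.22 on the log2 scale with overlapping groups. Adam17 shares 311 bases with Iah1, an opposite-strand neighbour that was given from 54 counts in WT replicate 3 to 399.5 in WT replicate 1. As for Timp3, reads of the shared bases cannot be assigned to either gene with certainty.

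Adam19, a protease known for cutting neuregulins and for its part in heart development, was second to Adam10 in TPM. It lies on chromosome 11 (46055992 to 46147343, plus strand, ENSMUSG00000011256). Adam19 was at 259.6, 266 and 250.3 CPM in WT replicates 1, 2 and 3, and at 304, 262 and 239 CPM in Cul5 cKO replicates 1, 2 and 3. The Cul5 cKO samples lay on both sides of the WT range, and the log2 fold change of 0.05 (SE 0.0930) became -0.04 in replicates 2 and 3 alone. Adam10 and Adam19 together held 66.9% to 73.1% of the ADAM sum in WT and 66% to 67.9% in Cul5 cKO cells on the TPM scale.

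Adam15, a disintegrin protease that binds integrins and is found at cell contacts, was higher in each Cul5 cKO sample. It lies on chromosome 3 (89338542 to 89349996, minus strand, ENSMUSG00000028041). Adam15 was at 39.0, 43.2 and 37.2 CPM in WT replicates 1, 2 and 3, and at 69.6, 56.8 and 60.9 CPM in Cul5 cKO replicates 1, 2 and 3. The groups were separate, with means of 39.8 ± 3.07 and 62.4 ± 6.53 CPM (SD, n = 3), which is 1.56-fold or a log2 fold change of 0.64 (SE 0.0983). Leaving out 1 sample in turn moved it between 0.56 and 0.71, replicates 2 and 3 alone gave 0.53, and counts scaled from TPM also gave 0.53. Its share of the ADAM sum in TPM was 16.2% ± 2.01 in WT and 20.7% ± 1.99 in Cul5 cKO cells (SD, n = 3), and here the groups overlapped, since WT replicate 3 was slightly above Cul5 cKO replicate 2. The antisense gene 4731419I09Rik shares 541 bases with Adam15 and was given 0 counts in every sample.

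Adam8, a protease of activated leukocytes that can cut L-selectin, was low. It lies on chromosome 7 (139978932 to 139992562, minus strand, ENSMUSG00000025473). Adam8 was at 1.32, 1.34 and 1.52 CPM in WT replicates 1, 2 and 3, and at 1.35, 3.42 and 1.42 CPM in Cul5 cKO replicates 1, 2 and 3. Of the 6 samples, 5 lay within a narrow band and Cul5 cKO replicate 2 stood above it. The log2 fold change was 0.59 (SE 0.426), 0.02 without Cul5 cKO replicate 2, and -0.09 in the gene-level table of the authors. On the TPM scale WT replicate 3 was the highest sample, at 3.71, from 6 counts assigned almost wholly to transcripts not annotated as protein-coding, with a mean effective length of 523 bases. In the other 5 samples 56.6% to 85.5% of the Adam8 counts were on protein-coding transcripts.

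Timp3 and Adam8 shared their high sample with some of the myeloid markers. In Cul5 cKO replicate 2 Lyz2 was at 2.81, Csf1r at 2.63, Fcgr3 at 4.51 and Tyrobp at 1.53 CPM, and in the other 5 samples the highest of their values was 0.445 CPM. Adgre1 was also highest there, at 2.98 CPM against 1.56 to 2.09 CPM. Itgam went another way, at 2.498 CPM in this sample, 5.93 CPM in WT replicate 2 and 4.81 CPM in WT replicate 3, and Cd14 was not raised, at 0.0438 CPM. Of the 7 myeloid markers, all had a count in some sample, Itgam and Adgre1 were over the floor in every sample, and Cd14 was at or under it in all 6. Cd63, a tetraspanin to which TIMP1 binds, was at 18.4 CPM in this sample against 0.434 to 1.11 CPM in the other 5. The part of myeloid RNA in the Timp3, Adam8 and Cd63 values of this sample was not tested.

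**Figure D3:**
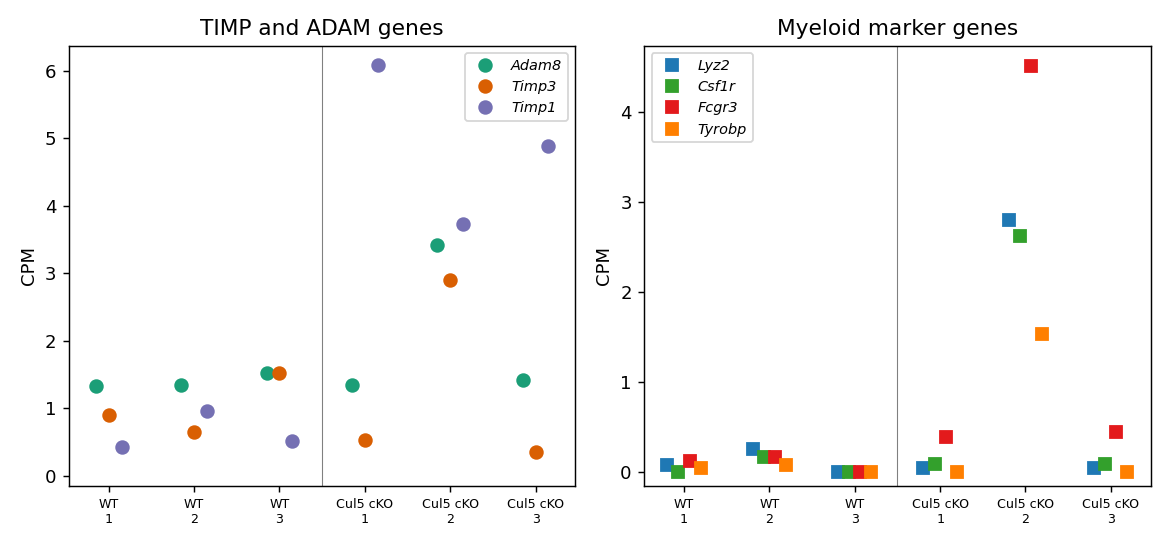
CPM per sample of Adam8, Timp3 and Timp1 (left) and of 4 myeloid markers (right), with WT samples left of the grey line and points shifted sideways so that none is hidden. Adam8 and Timp3 are highest in Cul5 cKO replicate 2, as the 4 markers are, while Timp1 is lowest there among the Cul5 cKO samples.

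Adamtsl2 is an ADAMTS-like glycoprotein with no protease domain, which binds fibrillin microfibrils and the latent TGF-β binding protein LTBP1. It lies on chromosome 2 (27079379 to 27108981, plus strand, ENSMUSG00000036040). Adamtsl2 was at 2.95, 1.86 and 2.02 CPM in WT replicates 1, 2 and 3, and at 0.738, 0.570 and 0.489 CPM in Cul5 cKO replicates 1, 2 and 3. Every Cul5 cKO sample was below every WT sample. The counts were 69, 43 and 8 in WT and 17, 13 and 11 in Cul5 cKO cells, all above the floor of their library. The means were 2.28 ± 0.585 and 0.599 ± 0.127 CPM (SD, n = 3), so that WT cells held 3.83 times as much, and the log2 fold change was -1.94 (SE 0.327). Leaving out 1 sample in turn gave values from -2.11 to -1.67, replicates 2 and 3 alone gave -1.84, and on the log2(TPM + 1) scale, which understates changes of low genes, it was -0.85. Protein-coding transcripts took 49.6% to 95.7% of the counts in WT and 53.9% to 90.8% in Cul5 cKO samples, the rest being assigned to transcripts with a retained intron.

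**Figure D4:**
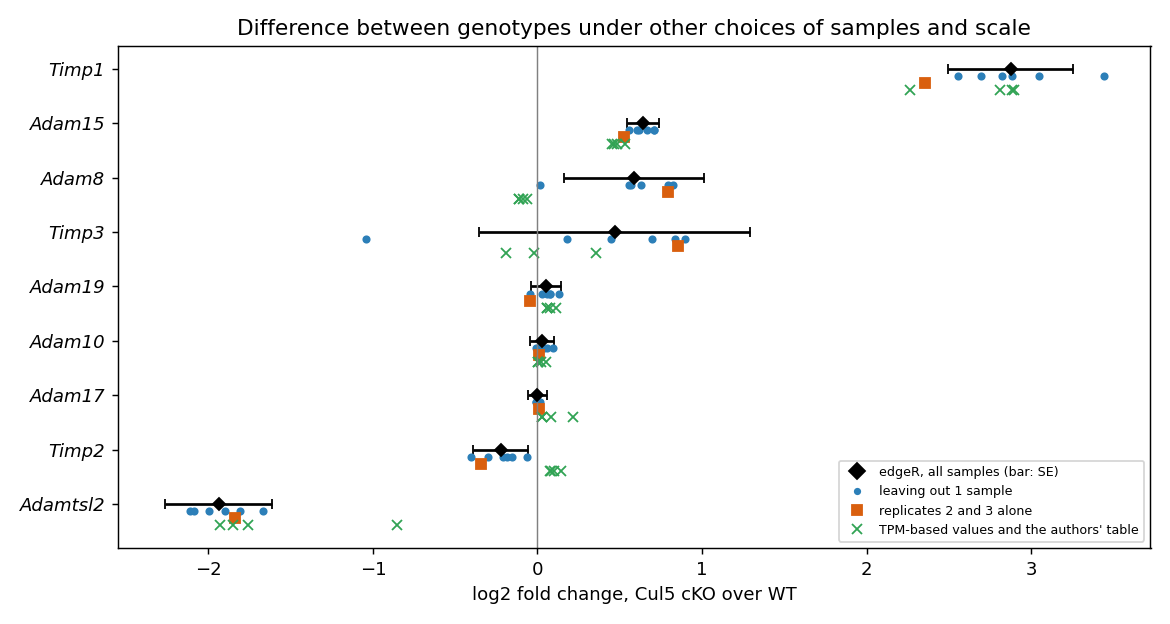
Log2 fold change of each gene, Cul5 cKO over WT, from edgeR with all samples (black, bar: SE), with each sample left out (blue), with replicates 2 and 3 alone (orange) and from TPM-based values and the table of the authors (green). Timp1 and Adam15 stay above 0 and Adamtsl2 below 0 throughout, Timp2 and Adam8 lie on the other side of 0 for the green points, and Timp3 falls to -1.05 without Cul5 cKO replicate 2 and to -0.19 on a TPM scale with all samples.

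The promoters of the 3 genes whose groups did not overlap are shown as the 250 bases before the start site in RefSeq on GRCm38.p6, written 5′ to 3′ along the gene, with capitals for matches on either strand to the motifs listed after them. They are chrX:20869916-20870165 (plus strand) for Timp1, chr3:89350029-89350278 (minus strand) for Adam15 and chr2:27079129-27079378 (plus strand) for Adamtsl2.
Timp1: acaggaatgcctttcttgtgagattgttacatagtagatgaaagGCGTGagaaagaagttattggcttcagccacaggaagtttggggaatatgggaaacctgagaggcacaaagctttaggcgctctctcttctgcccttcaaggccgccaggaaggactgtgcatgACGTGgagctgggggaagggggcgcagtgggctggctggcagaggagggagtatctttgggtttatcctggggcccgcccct
Adam15: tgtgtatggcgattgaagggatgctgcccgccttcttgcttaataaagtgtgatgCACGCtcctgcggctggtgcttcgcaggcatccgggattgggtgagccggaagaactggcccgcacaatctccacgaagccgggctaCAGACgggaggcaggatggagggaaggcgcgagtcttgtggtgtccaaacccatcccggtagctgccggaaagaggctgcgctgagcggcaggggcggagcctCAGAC
Adamtsl2: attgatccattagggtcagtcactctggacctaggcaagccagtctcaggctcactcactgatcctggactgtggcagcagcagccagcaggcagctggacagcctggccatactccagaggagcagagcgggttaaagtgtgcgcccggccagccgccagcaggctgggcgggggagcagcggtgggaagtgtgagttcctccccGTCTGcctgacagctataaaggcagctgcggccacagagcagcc

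Several short motifs were searched on both strands. STAT dimers were represented by TTCNNNGAA and by the same arms with 4 bases between them, the spacing that STAT6 prefers. AP-1 was represented by TGANTCA, and factors of the family named after its core letters by GATAAG. The core bound by hypoxia-inducible factors is ACGTG, and that of the aryl hydrocarbon receptor is GCGTG. For SMAD proteins, which act downstream of TGF-β, the letters were CAGAC. The 9 genes had 11 promoters in the table, of which Adam19 had 3. The narrow STAT motif was in 0 of the 11, against 7.02% of all 32841 promoters, and GATAAG also in 0, against 6.55%. The Timp1 promoter held ACGTG at -82 to -78 and GCGTG at -206 to -202 from the start site, cores found in 16.6% and 28.2% of all promoters. Adam15 held CAGAC at -108 to -104 and at -5 to -1 and GCGTG on the other strand at -195 to -191, and Adamtsl2 held CAGAC on the other strand at -44 to -40. CAGAC was in 42.2% of all promoters and in 5 of the 11. The hypoxia core was in 4 of the 11, which belonged to Adam10, Adam19 and Timp1, and that of the aryl hydrocarbon receptor in 7. No motif overlapped another in the 3 promoters shown. The wider STAT spacing (5.85% of all promoters) and the AP-1 motif (6.75%) were each in 1 of the 11, both times upstream of Adam19. GC content was 54.4% for Timp1, 62.0% for Adam15 and 62.8% for Adamtsl2, with a median of 52.4% over all promoters. A match is a run of letters and does not show that a factor binds there.

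Genes with a pattern most like those of Timp1 and Adamtsl2 were sought among 11615 tested genes with a mean of at least 1 CPM, by Pearson's r of log2 CPM over the 6 samples, which fall into the genotype groups. For Timp1 these were Ass1 (r = 0.992), Slc4a11 (0.991), Fam129b (0.990), Trim27 (0.989) and Plekhf2 (0.988). Ass1, an enzyme of arginine synthesis, had means of 286 ± 19.2 CPM in WT samples and 417 ± 24.8 CPM in Cul5 cKO samples, and Slc4a11, a membrane transporter, of 17.8 ± 1.72 and 40.3 ± 6.89 CPM (SD, n = 3). For Adamtsl2 they were H2afv (0.997), Tspan13 (0.993), Sit1 (0.992), Pym1 (0.991) and Gnaq (0.989). Tspan13, a tetraspanin, averaged 128.7 ± 19.4 CPM in the WT and 71.7 ± 10.1 CPM in the Cul5 cKO group (SD, n = 3).

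Other genes of the families and of the pathway around them were taken in 4 lists, in which edgeR called 1 gene, Hbegf. The lists were chosen with earlier results of these data known, so nothing is read from the number of calls in them. Of 76 further ADAM, ADAMTS, MMP and TIMP genes, 22 had no count in any sample and 20 passed the filter. Among these 20, 0 were past an adjusted p of 0.05 in edgeR's test and 4 had an unadjusted p under 0.05, all lower in Cul5 cKO cells. Over all 12925 genes, 1415 were higher and 1338 lower at that level. DESeq2 called 1 of the 20, Adamts6, beside 693 of all 12925 genes tested. The median log2 fold change of the 20 was -0.19, with 16 below 0, beside a median of -0.01 and 6615 of 12925 below 0 over all genes tested. The 20 leave out the 9 genes described above, which were chosen on this contrast, so this median does not describe the whole family. Adamts6, a secreted matrix protease, averaged 67.2 ± 15.01 CPM in the WT and 42.2 ± 8.72 CPM in the Cul5 cKO group (SD, n = 3), or -0.66 on the log2 scale (adjusted p = 0.138 in edgeR's test), and the groups overlapped. Adamts10, a relative that acts on fibrillin microfibrils, was at -0.34 (adjusted p = 0.149 in edgeR's test), and Adam22, a member with no protease activity, at -1.07 from levels under 1 CPM (adjusted p = 0.168 in edgeR's test). The fourth gene, Mmp15, was named after its values were seen and was at -1.32 (adjusted p = 0.194 in edgeR's test). The 3 genes above 0 with the lowest p were Adam1a (0.41), Adam9 (0.13) and Adam11 (0.70), with adjusted p-values of 0.408, 0.550 and 0.595 in edgeR's test.

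The shedding machinery comprised 13 genes that carry, sort or activate ADAM10 and ADAM17, such as iRhoms, tetraspanins and proprotein convertases. Of the 10 tested, 0 were called by edgeR, 2 had an unadjusted p under 0.05 and DESeq2 called 0. Over all 12925 genes tested, these numbers were 133, 2753 and 693. The median log2 fold change of the 10 was 0.05. Furin, the convertase that removes the prodomain of ADAMs, was at 170, 282 and 251 CPM in WT replicates 1, 2 and 3, and at 300.2, 327 and 340 CPM in Cul5 cKO replicates 1, 2 and 3. Its groups did not overlap and differed by 0.46 on the log2 scale (SE 0.171), which did not pass edgeR's test (adjusted p = 0.189). Frmd8, which stabilizes the iRhom and ADAM17 complex, averaged 168 ± 8.30 CPM in the WT and 137 ± 18.7 CPM in the Cul5 cKO group (SD, n = 3), or -0.29 on the log2 scale (adjusted p = 0.179 in edgeR's test). Rhbdf1 (0.32) and Tspan33 (0.35), and on the other side Tspan14 (-0.15) and Pcsk7 (-0.12), had adjusted p-values from 0.302 to 0.637 in edgeR's test.

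Of 28 membrane proteins reported to be shed by these proteases, 23 were tested and 1, Hbegf, was called by edgeR. Over all 12925 genes tested, edgeR called 133 (1.03%). Since the list was chosen with earlier results of these data known, the call of Hbegf is given as a description. Hbegf, a growth factor released from the membrane by ADAM17 and its relatives, was at 12.5, 13.1 and 10.9 CPM in WT replicates 1, 2 and 3, and at 19.9, 29.3 and 29.97 CPM in Cul5 cKO replicates 1, 2 and 3. Its mean rose from 12.2 ± 1.15 to 26.4 ± 5.62 CPM (SD, n = 3), or by 1.10 on the log2 scale (SE 0.175), with an adjusted p of 0.0402 in edgeR's test, and every Cul5 cKO sample was above every WT sample. Over the 6 fits with 1 sample left out, Hbegf was past the threshold without Cul5 cKO replicate 1 and not past it without any 1 of the other 5 samples. The list as a whole had a median log2 fold change of 0.08, with 12 genes above 0 and 11 below. The receptor CD30 (Tnfrsf8) was at 1.26 (adjusted p = 0.169), Tnf at 0.79 (adjusted p = 0.292) and Havcr1 at 1.27 (adjusted p = 0.400) in edgeR's test. Selplg, the ligand of P-selectin, averaged 348 ± 12.5 CPM in the WT and 274 ± 24.6 CPM in the Cul5 cKO group (SD, n = 3). Its groups were separate, at -0.35 on the log2 scale, but the adjusted p was 0.0897 in edgeR's test. DESeq2 called both Hbegf and Selplg, beside 693 of all 12925 genes tested. Il6ra (-0.25) and Cx3cl1 (-0.84) had adjusted p-values of 0.302 and 0.350 in edgeR's test.

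Surface partners of TIMP1 and the microfibril and TGF-β storage genes linked to ADAMTSL2 made a list of 15, of which 8 were tested. edgeR called 0 of them, 1 had an unadjusted p under 0.05, and DESeq2 called that gene, Itgb1. Over all 12925 genes tested, edgeR called 133, 2753 had an unadjusted p under 0.05, and DESeq2 called 693. Itgb1, the β1 integrin that forms a complex with CD63 and TIMP1, averaged 144 ± 7.85 CPM in the WT and 184 ± 22.1 CPM in the Cul5 cKO group (SD, n = 3), or 0.35 on the log2 scale (adjusted p = 0.119 in edgeR's test), and was higher in all 3 Cul5 cKO samples. The log2 fold change of Cd63 was 3.20 with an SE of 1.39 (adjusted p = 0.240 in edgeR's test) and rested on Cul5 cKO replicate 2. Tgfb1 was at 386 ± 39.1 and 444 ± 31.1 CPM (SD, n = 3), with overlapping groups (adjusted p = 0.253 in edgeR's test). Lrrc32, which holds latent TGF-β on the cell surface, Ltbp1 and the endocytic receptor Lrp1 were at -0.42, -0.22 and -0.22, with adjusted p-values of 0.393, 0.765 and 0.779 in edgeR's test. The median over the 8 genes was -0.002.

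**Figure D5:**
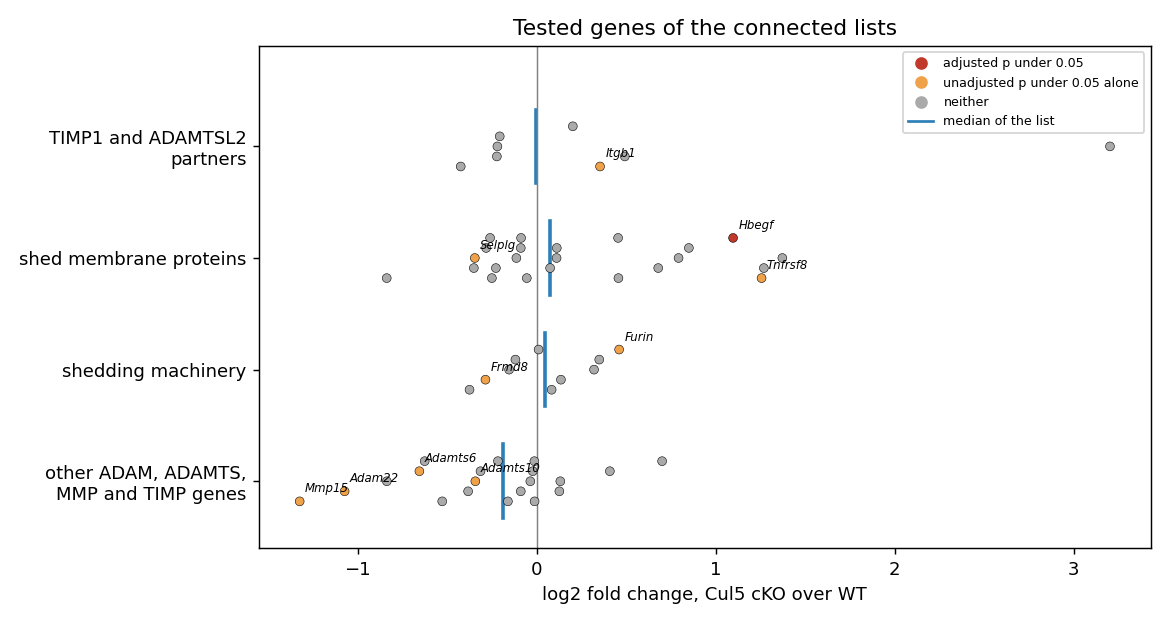
Log2 fold change, Cul5 cKO over WT, of every tested gene in the 4 connected lists, with 1 point per gene, a blue line at the median of each list, and names at an unadjusted p under 0.05. Hbegf is the 1 gene with an adjusted p under 0.05 in edgeR's test, and 16 of the 20 further ADAM, ADAMTS, MMP and TIMP genes lie below 0. The 9 genes chosen on this contrast are not among the 20.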

How the data were processed

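Poly-A RNA of 6 Th9 cultures (3 WT, 3 Cul5 cKO, grouped by the titles of the samples) was sequenced in single-end reads of 50 bases. The authors used kallisto 0.46.2 for pseudo-alignment against the Ensembl transcriptome (GRCm38) and deposited, per transcript, estimated counts (not normalized) and TPM. They also deposited log2 CPM per gene after TMM normalization in edgeR 3.34.0, and these log2 values as deposited served as an alternative. Its columns of fold changes and p-values hold their own comparison and were not used.

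For this report, transcripts were summed by gene with GENCODE vM21, which matched 116640 of 119414 transcripts (97.7%), and the sums were rounded. They were tested in R 4.3.3 with edgeR 4.0.16 (default expression filter, 12925 genes kept, TMM, quasi-likelihood test, Benjamini-Hochberg adjustment over all genes tested, called under 0.05). The biological coefficient of variation was 16.1%. Alternatives used DESeq2 1.42.0, limma 3.58.1, other filters and scales, the replicate number as a block and each sample left out. Python 3.11.15 with scipy 1.17.1 gave exact permutation tests, and blastn 2.17.0 found near copies (at least 150 bases at 95% identity or more). Promoter sequences are from RefSeq (GRCm38.p6), matched by symbol for all 9 genes.

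The 9 genes and all lists were chosen with earlier results of these data known. Named genes are the 9, Cul5, in each list the called genes and up to 3 higher and 3 lower genes with the lowest p among the rest, and the 5 genes most correlated with Timp1 and with Adamtsl2. Replicate numbers appear in the titles, but nothing says that a number marks a shared mouse or day.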

Additional observations from a re-analysis of the deposited data

How the results depend on the processing

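Over the alternatives tried, Timp1 and Adam15 stayed higher and Adamtsl2 lower in Cul5 cKO cells, with log2 fold changes from 2.26 to 3.44, from 0.45 to 0.71 and from -2.11 to -0.85. Genes called over all genes numbered 133, and 228 with no filter, 60 with counts scaled from TPM, 1153 in replicates 2 and 3 alone, 693 with DESeq2, 42 with limma on the table of the authors, 27 when limma was given log2 TPM with a pseudocount of 1 and 30 with one of 0.1, 2362 by an ordinary test at an unadjusted p under 0.05, and from 2 to 316 with each sample left out (2 without WT replicate 2 and also without WT replicate 3, 3 if Cul5 cKO replicate 3 was dropped, 45 if Cul5 cKO replicate 2 was, and 316 if WT replicate 1 was). Of the further ADAM, ADAMTS, MMP and TIMP genes, replicates 2 and 3 alone and DESeq2 called 1 each and the ordinary test 2, against 0. Of the shedding machinery, replicates 2 and 3 alone called 1, against 0. Of the shed proteins, counts scaled from TPM and the 3 limma fits called 0, replicates 2 and 3 alone 4, DESeq2 and the ordinary test 2 each, and leaving out a sample 0 to 1, against 1. Of the partner genes, replicates 2 and 3 alone, DESeq2 and the ordinary test called 1 each, against 0. The cause of these shifts was not tested.

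With the replicate number as a block, 848 genes were called over all genes, 1 of the further family genes, 1 of the shedding machinery, 4 shed proteins and 1 partner gene. The deviations of same-numbered samples correlated at 0.37, 0.206 and 0.025. WT replicates 1 and 2 correlated best with the Cul5 cKO sample of their number, although WT replicate 2 reached 0.201 with Cul5 cKO replicate 3. WT replicate 3 correlated best with Cul5 cKO replicate 2 (0.091), but its shallow library keeps this from deciding on pairs. The numbers were not taken as pairs because nothing says that they mark a shared mouse or day. The depth of WT replicate 3 limits the 4 genes below 3 CPM in WT, which rested there on 2 to 8 counts.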
